A study of Mus musculus with 47 samples.

Results

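Reads, labeling and decay of 10 splicing regulator genes were followed through neuronal differentiation of the mouse embryonal carcinoma line P19. The genes were the 3 polypyrimidine tract-binding protein genes Ptbp1, Ptbp2 and Ptbp3, the neuronal regulators Nova1, Nova2, Rbfox1, Rbfox2 and Srrm4, and the paralogs Celf1 and Celf2. They were chosen by name, as all 3′ UTRs whose RefSeq transcript name belongs to one of these symbols. They made up 10 of the 18800 genes with a 3′ UTR in the data, 34 of 28190 mRNA transcripts, and 15 of 20737 3′ UTRs with different coordinates. Rbfox2 and Celf2 had 3 different 3′ UTRs each, Celf1 had 2 and the others 1. Values are given for the 3′ UTR of each gene with the most reads over all libraries.

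The libraries came from SLAM-seq, in which cells take up 4-thiouridine (4sU) into new RNA and labeled positions are read as C in place of T. Wild-type P19 cells were either undifferentiated (D0) or at day 6 of differentiation (D6) with 500 nM retinoic acid. By the paper's methods, the line is maintained in medium with serum and differentiated in NDiff medium on plates coated with poly-L-lysine. The culture medium thus differs with the state too, also in libraries without 4sU. In the anabolic assay 4sU was added and its uptake followed, whereas in the catabolic assay cells were labeled for 15 h and the loss of label was followed after its removal. The methods give a shorter labeling in another passage, so that values after 15 h stand for the start of this assay, whichever time is right. The dose was 20 µM at D0 and 500 µM at D6, so that dose and state cannot be told apart in any labeled library. The 2 states, 2 assays and 4 time points gave 16 groups and 47 libraries in all, with 3 libraries a group and 2 for the third catabolic time point of D6. The first time point of the anabolic assay received no 4sU, and these 3 libraries of each state were used to compare reads between D0 and D6. The time points are 0, 3, 6 and 9 h in the series description but 0, 1, 3 and 9 h in the sample labels, and they are called the first to the fourth below where the hour is in doubt. P19 cells are a single line grown in culture, and the D6 cultures are mixtures of cells.

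Polypyrimidine tract-binding proteins bind pyrimidine-rich RNA and mostly repress the use of nearby exons. PTBP1 is made in most dividing cells, where it keeps neuronal exons out and also causes an exon of Ptbp2 to be skipped, which leads to loss of the Ptbp2 transcript. As neurons form, Ptbp1 declines and PTBP2 takes its place, a change known as the PTB switch, and NOVA, RBFOX and SRRM4 proteins add their own neuronal exon choices.

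The label was counted in the 3′ UTRs, where proteins that alter mRNA stability also bind, and matches to known binding sites of such proteins are shown here for the Ptbp and Nova genes, whose label is compared further on. Of all 20737 3′ UTRs, 16320 could be rebuilt from GENCODE vM21 transcripts (GRCm38, the assembly also called mm10) with exactly the number of T positions in the data, among them 11 of the 15 described here. Rbfox1, Srrm4 and the most read 3′ UTR of Celf2 were not among them. The sense strand was searched for TGCATG, the site bound by RBFOX proteins, for TGTANATA, the site of Pumilio proteins, and for TATTTAT, a core of AU-rich elements. Each line gives 30 bases, 5′ to 3′ along the transcript, with the match in capitals.
Ptbp1, TGTANATA, plus strand of chr10:79864158-79864187: gcgtggaagagTGTAAATAtttatgatttt
Ptbp2, TGCATG, minus strand of chr3:119719423-119719452: ttcaggaactggTGCATGtatttttcaaag
Ptbp3, TGCATG, minus strand of chr4:59472011-59472040: ctaactgtgtagTGCATGgttaattcaagc
Nova1, TGCATG, minus strand of chr12:46699320-46699349: tggaaataatgcTGCATGctggccagggcc
Nova1, TGCATG, minus strand of chr12:46698818-46698847: gacagtatttccTGCATGcttatttagaag
Nova2, TGCATG, plus strand of chr7:18959965-18959994: ctgccttttgtgTGCATGcctgtgtctacg

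Nova1 held 6 TGCATG matches in 5452 nt, where 83.7% of 153 3′ UTRs within 10% of its length held at least 1 and their median was 2. Nova2 held 3 (at least 1 in 91.9% of 74 like 3′ UTRs), Ptbp3 held 2 (78.7% of 202), Ptbp2 held 1 (41.4% of 945) and Celf1 held 1 (89.8% of 98). TGCATG was not among the letters of the Ptbp1 3′ UTR (33% of 922 like 3′ UTRs held it) or of the most read Rbfox2 3′ UTR (80.0% of 185). The 3′ UTR of Ptbp1 held 1 TGTANATA (21.9% of like 3′ UTRs), 259 nt before its end, and 1 TATTTAT (28.4%) that overlaps the end of this match in the line above. That of Ptbp2 held neither (28.5% of like 3′ UTRs held TGTANATA and 34.4% TATTTAT). TGTANATA matched 4 times in Ptbp3 (64.9%), 3 times in Nova2 (74.3%), 2 times in Nova1 (68.6%) and once in Rbfox2 (66.5%), and TATTTAT matched 4 times in Nova1 (64.1%) and once in Celf1 (70.4%). These matches are descriptions of the sequence, and binding was not measured.

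Depth and identity of the libraries bear on every value. Summed over all different 3′ UTRs, a D0 library had 3336544 to 11344758 reads (median 6946317), a D6 library 1425266 to 7649974 (median 3599146). Reads in a stretch shared by several 3′ UTRs count once for each, in these sums and in all totals and rates over the 3′ UTRs below. Levels are given as CPM, the reads of a 3′ UTR scaled to the library's effective size, which is the total over the different 3′ UTRs that passed the filter on low counts, adjusted by TMM normalization over all 47 libraries. Of 10 neuron markers, all 8 that passed this filter in both states rose at D6 without 4sU, where 7.08% of all 3′ UTRs did, and the 10 summed to 907 to 1261 CPM at D0 and 10941 to 11580 CPM at D6. The 7 embryonal carcinoma markers summed to 389 to 564 CPM at D0 and to 1.63 to 2.77 CPM at D6, and the 6 neural progenitor markers to 551 to 1153 CPM against 2532 to 2733 CPM. Without 4sU, none of the 4 neural progenitor markers that passed the filter in both states was called by edgeR, and the 2 called, Hes5 and Fabp7, passed it through D6 alone. In the same libraries neither of the 2 tested of 9 glia markers was called, with 7 of the 9, Gfap and Aqp4 among them, listed at 0 in all 3 D6 libraries. The endoderm markers summed to 0 to 8.26 CPM at D6, with 5 of 6 at 0. The mesoderm markers summed to 0 to 10.5 CPM, with 6 of 7 at 0, and the fibroblast-like markers to 0.670 to 8.72 CPM, with 4 of 6 at 0. At D0 the sums were 0 to 4.26 CPM for the endoderm, 16.6 to 24.0 CPM for the mesoderm and 23.5 to 64.7 CPM for the fibroblast-like markers. In the 41 libraries with 4sU, where 19.3% of all 3′ UTRs were higher at D6, the neural progenitor markers Sox1 (log2 change 2.91), Pax6 (1.34) and Vim (0.73) were called as higher and Nes was not (-0.02), the glia marker Mbp was higher (log2 change 0.96, edgeR adjusted p = 0.02), and S100b and the endoderm marker Sox7 reached the minimum of the filter in 2 and 0 of 21 D0 and in 7 and 5 of 20 D6 libraries. The part of such cells in the results below was not tested. At D6, 3 libraries stood apart from the others of their state, with a median correlation under 0.7 across 3′ UTRs, namely library 14 of the third catabolic time point (0.623), library 45 of the third anabolic one (0.698) and library 53 of the anabolic assay at 9 h (0.693). The other D6 libraries lay between 0.730 and 0.852 and the D0 libraries between 0.847 and 0.949. None of the 3 is among the libraries without 4sU.

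Ptbp1 fell and most neuronal regulators rose between D0 and D6. Without 4sU, 7 of the 10 genes passed the test at an adjusted p under 0.05 (edgeR quasi-likelihood test with Benjamini-Hochberg adjustment over 11055 3′ UTRs), 6 of them higher at D6 and Ptbp1 lower. Over all 3′ UTRs tested, 12.3% were called, 7.08% as higher and 5.19% as lower. The median log2 change was 1.83 over the 10 genes and -0.05 over all 3′ UTRs. All 10 passed the filter on low counts, but Srrm4 only through its D6 libraries, so that its call is no support. Of the 9 genes that passed it in both states, 5 were called as higher and 1 as lower, with a median of 1.69. In such bulk libraries, fewer cells of a type and less RNA per cell cannot be told apart. The replicates are separate biological samples by the series description, and p-values measure the spread between them.

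**Figure D1:**
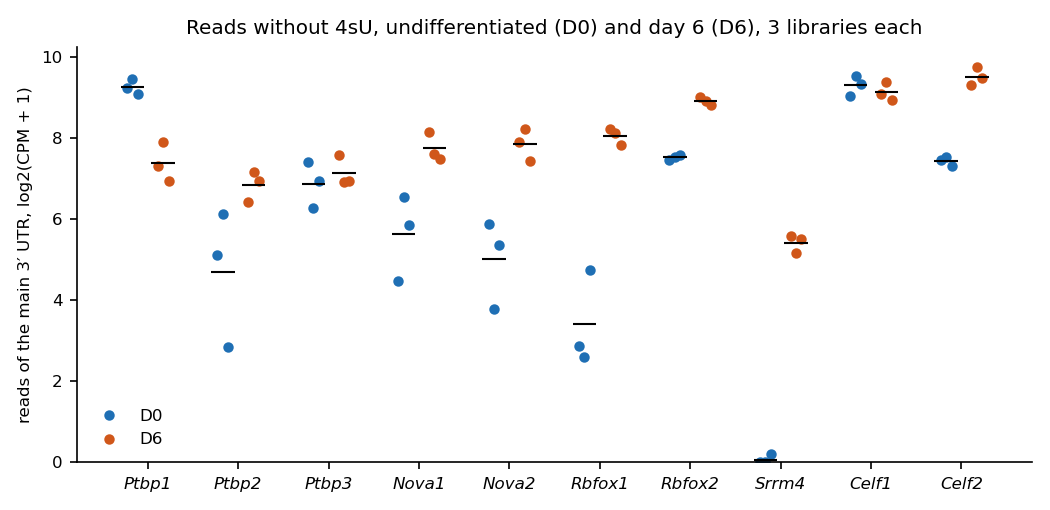
Level of each gene in the 6 libraries without 4sU, as log2(CPM + 1), for D0 (blue) and D6 (orange), with black lines at the group means. The groups of Ptbp3 and Celf1 overlap, while Ptbp1 lies lower at D6 and the other 7 genes lie higher there. The share of all 3′ UTRs without such overlap was not counted, so that this only describes the points shown.

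The gene for the repressor of neuronal exons, Ptbp1 (chr10:79863278-79864435, plus strand, 1158 nt of 3′ UTR), was at 597, 700 and 542 CPM at D0 and at 158, 238 and 122 CPM at D6. The groups did not overlap. Ptbp1 fell by 1.82 on the log2 scale (SE 0.30, edgeR adjusted p = 0.00274). Over all libraries it ranged from 460 to 762 CPM (median 623) in the 24 of D0 and from 8.47 to 269 CPM (median 164.5) in the 23 of D6. Every D6 library lay below every D0 library at all 8 combinations of assay and time point. How often the states are apart in this way over all 3′ UTRs was not counted, here or for the genes below. The lowest value was that of library 14, in which only 10 reads fell on Ptbp1.

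Its neuronal counterpart Ptbp2 (chr3:119718742-119720327, minus strand, 1586 nt) was at 33.3, 68.5 and 6.16 CPM at D0 and at 83.9, 141 and 122 CPM at D6. All 3 D6 libraries were above the D0 libraries, but the D0 libraries differed over a wide range. The log2 difference of 1.69 (SE 0.70) did not pass the test (edgeR adjusted p = 0.160). It lay between 1.19 and 2.56 when each library was left out, with an adjusted p up to 0.322, and passed only without D0 library 56, the highest of its group (0.0352). In the 41 libraries with 4sU, which share no library with this comparison but in which the dose differs with the state, the log2 change was 1.64 (SE 0.25, edgeR adjusted p = 2.12e-07). Without the 3 libraries that stood apart it was 1.60 (SE 0.19, adjusted p = 1.04e-09). Both fits count libraries of different time points as separate samples, here and for every gene below. The labels do not say whether some of these came from the same cultures, so that these p-values may be too small. Ptbp2 ranged from 6.16 to 68.5 CPM (median 30.4) over the D0 libraries and from 7.80 to 208 CPM (median 91.9) over the D6 libraries. The states did not overlap at 7 of 8 combinations of assay and time point, and at the other, 9 h of the anabolic assay, library 53 held only 11 reads of Ptbp2.

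The reads of Ptbp1 over those of Ptbp2 in the same library place both genes on one scale, on which only the change between states is read, since counts also differ with the 3′ UTR. Without 4sU, the mean log2 ratio went from 4.66 ± 1.61 at D0 to 0.55 ± 0.49 at D6 (SD, n = 3). The difference of -4.10 had an exact two-sided permutation p of 0.1, which is the smallest that 3 against 3 libraries can give, and it lay between -4.76 and -3.20 when each library was left out. Over all libraries, the ratio ranged from 6.94 to 88.0 (median 19.8) at D0 and from 0.0407 to 29.1 (median 1.83) at D6. The difference between the group means lay between -6.33 and -2.47 on the log2 scale over the 8 combinations. The smallest was that at 9 h of the anabolic assay, the only point at which the states overlapped and the one that holds library 53, and the largest was that of the third catabolic time point, which holds library 14.

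Ptbp3 (chr4:59471868-59476882, minus strand, 5015 nt), a paralog best known from blood cells, was at 168, 76.3 and 122 CPM at D0 and at 189, 119 and 122 CPM at D6. The groups overlapped, and the log2 difference of 0.25 (SE 0.39) did not pass the test (edgeR adjusted p = 0.776) and was -0.0052 without D6 library 37. In the 41 libraries with 4sU the log2 difference was 0.49 (adjusted p = 0.00877), and without the 3 libraries that stood apart 0.31 (adjusted p = 0.0604). The states overlapped at 7 of the 8 combinations of assay and time point.

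**Figure D2:**
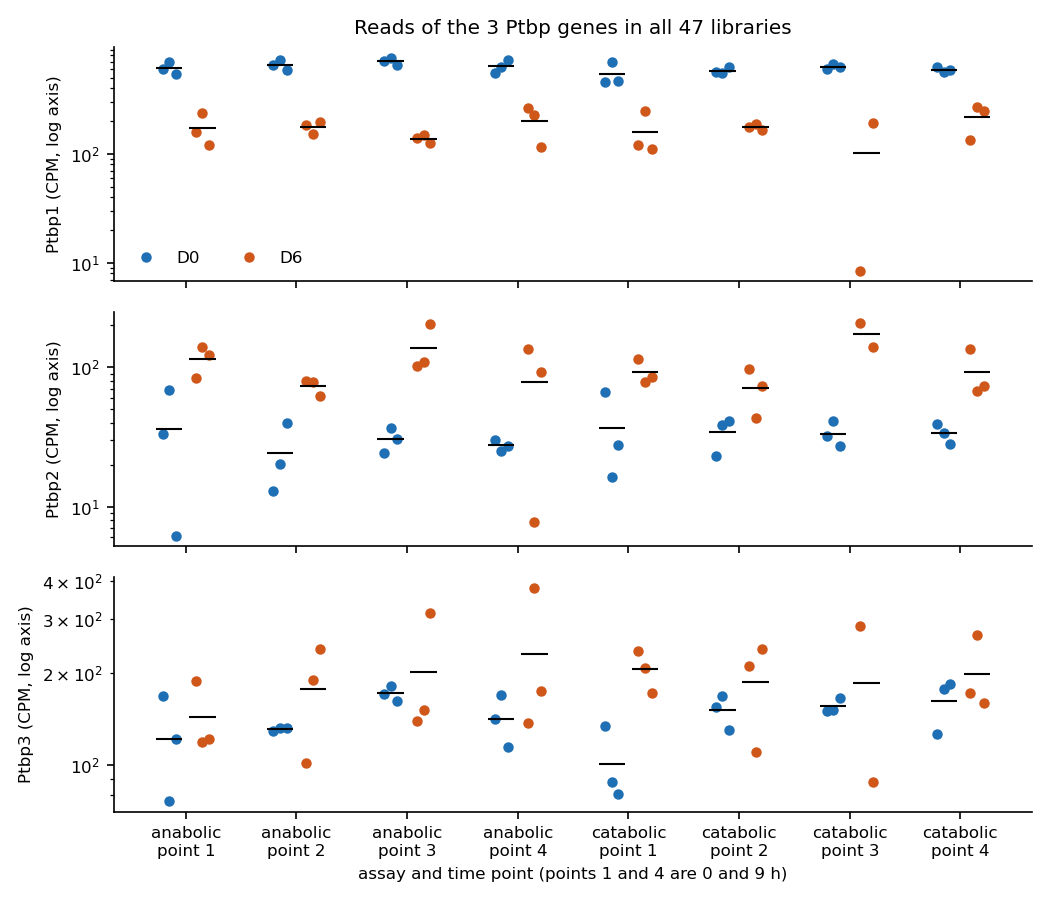
CPM of Ptbp1, Ptbp2 and Ptbp3 on log axes in all 47 libraries, by assay and time point, for D0 (blue) and D6 (orange), with black lines at the group means. Ptbp1 is lower at D6 at all 8 points, Ptbp2 is higher at 7 of 8, and Ptbp3 overlaps at 7 of 8. The single low D6 values are library 14 for Ptbp1 (8.47 CPM) and library 53 for Ptbp2 (7.80 CPM).

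NOVA proteins are neuronal RNA-binding proteins that regulate exons of synaptic genes. Nova1 (chr12:46694517-46699968, minus strand) was at 21.4, 91.6 and 56.8 CPM at D0 and at 283, 193 and 178 CPM at D6. Its log2 change of 1.97 (SE 0.50, edgeR adjusted p = 0.0266) passed the test but not after D6 library 37 (adjusted p = 0.119), 38 (0.0679) or 39 (0.0578) or D0 library 57 (0.0575) had been left out. Nova2 (chr7:18958619-18965319, plus strand, 6701 nt), the paralog that is prominent in cortex, was at 57.6, 12.8 and 40.1 CPM at D0 and at 237, 299 and 173 CPM at D6. It rose by 2.69 (SE 0.52, adjusted p = 0.00675). For both genes, every D6 library was above every D0 library at all 8 combinations of assay and time point. In the 41 libraries with 4sU, the log2 change was 2.14 for Nova1 (adjusted p = 1.15e-12) and 3.25 for Nova2 (adjusted p = 1.76e-21).

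RBFOX proteins enhance or repress exons depending on the side of the exon on which they bind. Rbfox1 (chr16:7409814-7412480, plus strand, 2667 nt), expressed in neurons, heart and muscle, was at 6.26, 5.03 and 26 CPM at D0 and at 295, 279 and 226 CPM at D6. It rose by 4.44 on the log2 scale (SE 0.63, edgeR adjusted p = 0.00108). The more widely expressed Rbfox2 (chr15:77078990-77084161, minus strand, 5172 nt) was already at 173, 184 and 191 CPM at D0 and at 512, 483 and 452 CPM at D6. It rose by 1.42 (SE 0.24, adjusted p = 0.00355). The replicates of Rbfox2 lay within a narrow range in both states. Both genes were higher in all D6 libraries at 7 of the 8 combinations, with library 14 at 1 read of Rbfox1 (0.847 CPM) and library 53 at 63.8 CPM of Rbfox2 as the lowest D6 values.

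Srrm4 (chr5:116439272-116444567, minus strand, 5296 nt), the activator of neuronal microexons also known as nSR100, had 0, 0 and 1 read at D0 and 211, 112 and 299 reads at D6 without 4sU. These are 0, 0 and 0.147 CPM against 47.1, 34.5 and 44.2 CPM. Pooled over the 3 libraries of a state, the level at D6 was 813 times that at D0, with an exact 95% interval from 145 to 32161 that covers counting error only. Over all libraries, 38 reads were counted in 12 of the 24 D0 libraries and 3653 reads in 21 of the 23 D6 libraries, a ratio of 178 (129 to 251). The 2 D6 libraries without a read of Srrm4 were 14 and 53, which stood apart, so that of the remaining D6 libraries all held reads.

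CELF proteins bind GU-rich RNA and act in splicing as well as in mRNA decay. Celf1 (chr2:91013366-91019497, plus strand, 6044 nt in 2 intervals) was at 523, 738 and 645 CPM at D0 and at 540, 661 and 488 CPM at D6. The groups overlapped, and the log2 difference was -0.16 (SE 0.24, edgeR adjusted p = 0.777). It was -0.05 (SE 0.10, adjusted p = 0.736) in the 41 libraries with 4sU. Celf2 (chr2:6539694-6547085, minus strand, 7392 nt), the paralog that is high in brain, was at 175, 183 and 157 CPM at D0 and at 633, 862 and 709 CPM at D6. It rose by 2.11 (SE 0.25, adjusted p = 0.000385) and was higher at D6 in every library at all 8 combinations.

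Over the 41 libraries with 4sU, 9 of the 10 genes were called, 8 as higher (19.3% of 13214 3′ UTRs were) and Ptbp1 as lower (26.7%). These 8 were the 6 called as higher without 4sU, Ptbp2 and Ptbp3, of which Ptbp3 was not called without the libraries that stood apart. Srrm4 was again tested through D6 alone, with no D0 library past the minimum of the filter, and of the other 9 genes 7 were called as higher and 1 as lower. The median log2 change of the 10 genes was 1.89, and 1.64 without Srrm4, against -0.25 over all 3′ UTRs tested. The exposure itself was compared within each state, between the libraries after 15 h of 4sU and those without. At D0, none of the 9 genes tested was called (0% of 10653 3′ UTRs by edgeR, 212 of them at an unadjusted p under 0.05, and 2 by DESeq2), and their median log2 difference was -0.12. At D6, none of 10 was called either (0.00932% of 10730, 1 of them by edgeR, with 615 at an unadjusted p under 0.05 and 177 by DESeq2), with a median of -0.14. None of the tested genes had an unadjusted p under 0.05 in either state.

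**Figure D3:**
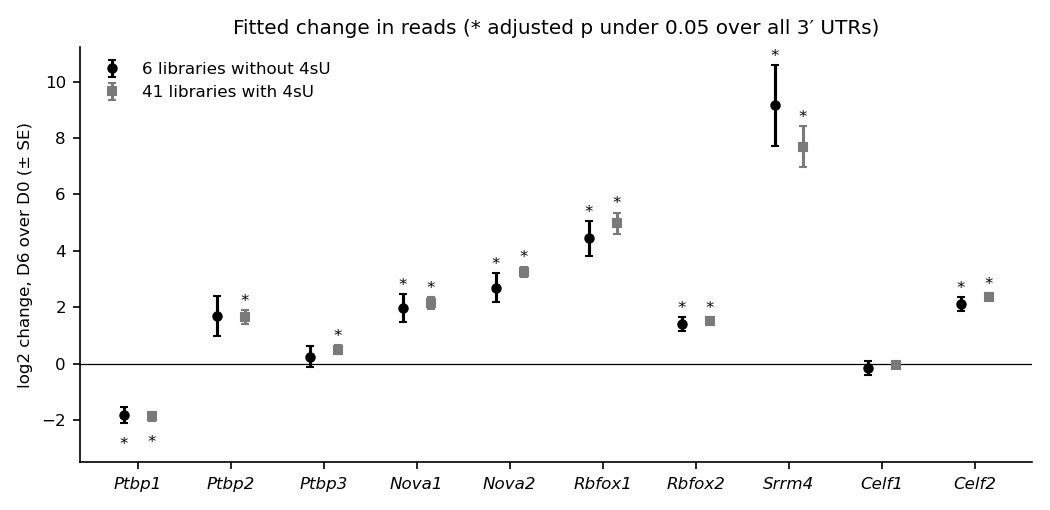
Fitted log2 change in reads of each gene, D6 over D0, with its standard error, from the 6 libraries without 4sU (circles) and the 41 libraries with 4sU (squares). Stars mark an adjusted p under 0.05 over all 3′ UTRs tested. Ptbp1 lies at -1.82 and -1.87, Celf1 near 0, and Ptbp2 at 1.69 and 1.64 with a star for the latter only. The fitted value of Srrm4 rests on a single D0 read in the 6 libraries, and neither of its stars is support, since it passed the filter on low counts through D6 alone in both sets.

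Where a gene had several 3′ UTRs, the shorter form lies within the longer one and both share reads, so that the share of reads in the shorter form was followed. The 3281 nt at the distal end of the Rbfox2 3′ UTR held 27.3% ± 13.8 of its reads at D0 and 31.2% ± 7.4 at D6 (SD, n = 3, without 4sU, exact permutation p = 0.8). The remaining reads lay in the proximal part. The 2969-nt form of Celf1 held 92.3% ± 0.53 at D0 and 95.1% ± 2.8 at D6 (exact permutation p = 0.1). The 6026-nt form of Celf2 held 100% at D0 and 98.2% ± 1.2 at D6 (exact permutation p = 0.1). The smallest p that 3 against 3 libraries can give is 0.1. Over all libraries the states overlapped, at 85.9% to 97.9% for D0 and 76.6% to 100% for D6 in Celf1, and at 95.5% to 100% and 91.5% to 100% in Celf2.

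Label was measured as the conversion rate, the T>C conversions over the covered T positions of a 3′ UTR. After 15 h of 4sU, the rate over all 3′ UTRs was 1.42% at D0 and 4.64% at D6, and without 4sU it was 0.169% and 0.164%. Ptbp1 was at 0.606%, 1.33% and 1.12% after 15 h at D0 and at 4.02%, 6.32% and 8.96% at D6. Ptbp2 was at 1.92%, 0.243% and 1.16% at D0 and at 7.73%, 9.42% and 5.07% at D6. Both genes had more label at D6, as the 3′ UTRs together did with the higher dose, so that rates were tested relative to the rate of their library. On that scale, Ptbp1 was 0.99 higher at D6 in log2 (SE 0.39) and Ptbp2 0.92 higher (SE 0.62). When each library was left out, Ptbp1 lay between 0.59 and 1.26 and Ptbp2 between 0.50 and 1.56. Neither passed the test (edgeR adjusted p = 0.809 and 0.999), and none of the 8 genes tested was called, where 0.0549% of 7291 3′ UTRs were (4 by edgeR, 126 by DESeq2). Of the 8 genes, 1 had an unadjusted p under 0.05, as had 389 of all 3′ UTRs.

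All 10 genes had lost most of their label 9 h after its removal at D6, as had the 9 that could be tested at D0. Among the latter, Rbfox1 had only 59 reads and 6 conversions at 0 h, over 3 libraries. Over all 3′ UTRs, 29% ± 1.2 of the rate at 15 h was left at D0 and 18.9% ± 1.4 at D6 (SD, n = 3). The rate without 4sU was itself 11.9% of the rate at 15 h at D0 and 3.53% at D6. Among the 9 genes the share left at D0 lay between 1.69% ± 2.92 for Ptbp2 and 18.6% ± 14.9 for Nova1, and at D6 the share over all 10 lay between 0.856% ± 0.824 for Srrm4 and 18.7% ± 12.4 for Nova2. All means were below that of the 3′ UTRs together in both states. That rate is weighted by reads, so that a few highly read 3′ UTRs count most. The median 3′ UTR lost more than the whole library, with a log2 of -0.68 at D0 and -0.67 at D6 relative to it. The 9 genes had a median of -1.45 at D0 and the 10 genes one of -0.71 at D6.

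**Figure D4:**
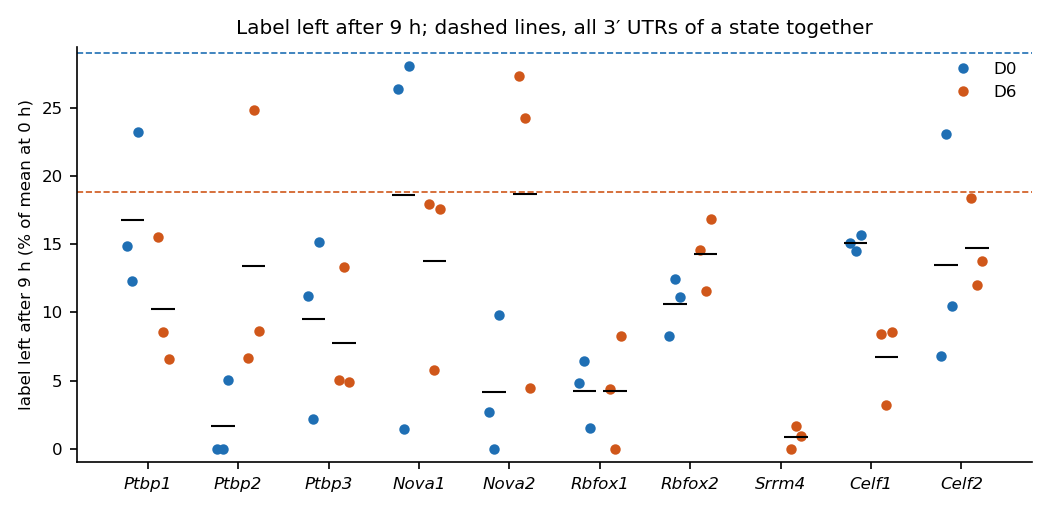
Conversion rate 9 h after label removal, as percent of the mean at 0 h of the same state, per library, for D0 (blue) and D6 (orange), with black lines at the means. Dashed lines give all 3′ UTRs of a state together, at 29% and 18.9%. All group means lie below the line of their state, and Celf1 is the gene with the narrowest D0 values. Srrm4 has no D0 value.

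By edgeR, none of the genes was called as losing label at a different rate from its library, at D0 (9 tested, with 5.31% of 9409 3′ UTRs called) or at D6 (10 tested, with 1.1% of 8743 called). An unadjusted p under 0.05 was found for 4 of the 9 at D0, as for 1707 of all 3′ UTRs, and for 3 of the 10 at D6, as for 1412. By DESeq2, 1054 of 7222 3′ UTRs tested were called at D0, Celf1 and Rbfox2 among them. At D6, 868 of 7265 were called, with Celf1 and Srrm4. Celf1 was nearest to the threshold in both states. Its rate fell from 1.28%, 1.39% and 1.81% to 0.226%, 0.217% and 0.234% at D0, and from 5.20%, 4.49% and 4.45% to 0.397%, 0.152% and 0.404% at D6. Relative to the library the log2 value was -0.95 at D0 (SE 0.31, edgeR adjusted p = 0.0502) and -1.48 at D6 (SE 0.41, adjusted p = 0.151). By DESeq2 both were called (adjusted p = 0.0084 and 0.029), and by edgeR the D0 value was too without D0 library 35 (adjusted p = 0.0327, against up to 0.335 without another library), with a minimum of 10000 covered T positions (0.0257) and for the slope over the label hours (0.00158).

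Rbfox2 went from 1.59%, 1.5% and 1.49% to 0.127%, 0.190% and 0.170% at D0, which is a log2 of -1.45 relative to the library (SE 0.56, edgeR adjusted p = 0.133). This value passed by DESeq2 (adjusted p = 0.00918) and, by edgeR, without D0 library 35 (0.0259, against up to 0.392 without another library) and for the slopes over the hours of the description (0.043) and of the labels (0.00142). At D6 it went from 5.39%, 5.85% and 4.91% to 0.783%, 0.622% and 0.906% (-0.39, SE 0.25, adjusted p = 0.503). Srrm4 went from 7.11%, 6.56% and 2.67% to 0%, 0.0894% and 0.0504% at D6, with 2 conversions left in 6629 covered T positions. Its log2 value of -4.58 (SE 1.77) rests on these 2 conversions and did not pass (edgeR adjusted p = 0.257, DESeq2 0.0127).

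The loss of label was then compared between the states, by the interaction of state and time over the catabolic libraries at 0 and 9 h. None of the 9 genes tested was called, where 0.253% of 7914 3′ UTRs were (20 by edgeR, 852 at an unadjusted p under 0.05, 211 by DESeq2), and Srrm4 could not be tested. Their median log2 difference was -0.31, against -0.64 over all 3′ UTRs. Ptbp1 went from the rates above to 0.151%, 0.126% and 0.237% at D0 and to 0.997%, 0.550% and 0.426% at D6. This left 16.8% ± 5.7 of its label at D0 and 10.2% ± 4.7 at D6, a log2 difference of -0.72 (SE 0.84, edgeR adjusted p = 0.837) that was 0.16 by limma after subtraction of the rate without 4sU, where both the test and the background differ. Without 4sU, Ptbp1 itself read 7.63% of its rate at 15 h at D0 and 0.264% at D6.

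Ptbp2 went to 0%, 0% and 0.0559% at D0 and to 0.495%, 1.84% and 0.641% at D6. The share left was 1.69% ± 2.92 at D0, where only 5 conversions were counted in 24750 covered T positions, and 13.4% ± 10.0 at D6. The log2 difference of 2.85 (SE 1.63) did not pass the test (edgeR adjusted p = 0.554), and it lay between 2.05 and 6.69 when each library was left out, the last without D0 library 36. Celf1 kept 15.1% ± 0.56 at D0 and 6.74% ± 3.04 at D6, with no overlap between the libraries of the states. Its log2 difference was -1.16 (SE 0.54) and had an unadjusted p of 0.0399 that did not hold after adjustment (edgeR adjusted p = 0.441). The rate of Celf1 without 4sU was 8.98% of that at 15 h at D0 and 2% at D6, and by limma after its subtraction the log2 difference was -0.84.

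Of the other genes, Rbfox2 kept 10.6% ± 2.1 at D0 and 14.3% ± 2.6 at D6 (log2 difference 0.43, SE 0.52), and Celf2 kept 13.4% ± 8.6 and 14.7% ± 3.3 (0.13, SE 0.55). Ptbp3 kept 9.54% ± 6.66 and 7.74% ± 4.82, Nova1 18.6% ± 14.9 and 13.8% ± 6.9, Nova2 4.17% ± 5.09 and 18.7% ± 12.4, and Rbfox1 4.24% ± 2.51 and 4.23% ± 4.15. Their log2 differences were -0.31 (SE 1.01), -0.44 (SE 1.05), 1.80 (SE 1.73) and -0.31 (SE 2.38), with edgeR adjusted p between 0.780 and 0.993. These SEs are close to the size of the differences or larger, so that none of these 4 genes can be said to differ or not to differ between the states. The D0 value of Rbfox1 rests on 6 conversions at 0 h and 6 at 9 h.

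Uptake was compared in the same way, as the label taken up within 9 h relative to the 15 h libraries. Over all 3′ UTRs it came to 87.5% ± 3.4 in D0 and 77.7% ± 12.8 in D6 libraries (SD, n = 3). Ptbp1 reached 101% ± 6.2 and 74.1% ± 34.5, Rbfox2 105% ± 10.3 and 88.7% ± 8.9, Celf1 88.6% ± 4.3 and 91.9% ± 6.6, and Celf2 89.6% ± 10.9 and 81.5% ± 15. Ptbp2 was at 143% ± 25.5 and 72.3% ± 38.5, with the largest log2 difference of the 8 genes tested, -0.96 (SE 0.97). Ptbp3 was at 70.4% ± 31.6 and 88.2% ± 11.2, Nova1 at 62.7% ± 27.9 and 66.5% ± 52, and Nova2 at 109% ± 46.1 and 93.9% ± 30.2. None of the 8 genes tested differed between the states by the test, nor did any 3′ UTR (0% of 7879 by edgeR, 500 of them at an unadjusted p under 0.05, 61 by DESeq2), and none of the 8 had an unadjusted p under 0.05. At D6 these values include library 53, and without it (n = 2) they were 84.5% over all 3′ UTRs, 88.7% for Ptbp1, 57.2% for Ptbp2, 88.0% for Rbfox2, 90.9% for Celf1, 89.9% for Celf2, 82.0% for Ptbp3, 96.5% for Nova1 and 109% for Nova2.

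Half-lives were fitted to all time points of an assay, with the hours of the series description, and a fit was kept at an R squared over 0.6. For decay, 10 of 20 fits were kept, against 15.8% of 9149 3′ UTRs at D0 and 18.1% of 8653 at D6. Rbfox2, Celf1, Celf2 and Nova1 had a kept decay half-life in both states. Rbfox2 had 6.27 h (SE 1.37) at D0 and 5.71 h (SE 1.21) at D6, Celf2 6.01 h (SE 1.22) and 6.31 h (SE 1.85), and Nova1 5.15 h (SE 1.28) and 5.23 h (SE 1.56). Celf1 had 6.60 h (SE 1.34) and 4.13 h (SE 1.07). The 95% intervals of the states overlapped for all 4, at 4.72 to 10.9 h and 2.73 to 8.42 h for Celf1. The rate without 4sU was not subtracted in any half-life given here. For Celf1 it was 8.98% of the rate at 15 h at D0 and 2% at D6, so that it weighs unequally on the 2 states. At D6 alone, fits were kept for Ptbp2 at 3.30 h (SE 0.70) and Ptbp3 at 4.40 h (SE 0.83). The median over all kept fits was 4.69 h at D0 and 3.68 h at D6. Without library 14, which is one of the 2 libraries of the third time point, the D6 half-lives were 3.77 h for Ptbp2, 4.49 h for Ptbp3, 6.25 h for Nova1, 5.75 h for Rbfox2, 4.71 h for Celf1 and 6.43 h for Celf2.

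No decay half-life of Ptbp1 was kept. Its fitted values of 9.96 h at D0 (SE 4.05, R squared 0.35) and 3.79 h at D6 (SE 1.59, R squared 0.50) describe the curves poorly, since the label at D0 was at 0.911% at the second and 1.07% at the third time point, against 1.02% at 0 h, and had fallen to 0.171% by 9 h. At D6 the rate of Ptbp1 at the second time point ranged from 1.42% to 9.67%. For Ptbp2 at D0 the fitted 8.88 h (SE 7.0) was not kept either. Such a course, with little loss by the second time point, was also that of the 3′ UTRs together, at 1.42% and 1.41% for the first and second time points at D0 and at 4.64% and 4.67% at D6. The half-life thus depended on the hours used. With 0 and 9 h only, Celf1 had 3.30 h at D0 and 2.31 h at D6, Rbfox2 2.78 h and 3.21 h, Celf2 3.11 h and 3.25 h, Nova1 3.71 h and 3.15 h, and Ptbp2 3.10 h at D6. With the hours of the sample labels, Celf1 had 4.23 h and 2.12 h, and Ptbp2 1.40 h at D6.

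**Figure D5:**
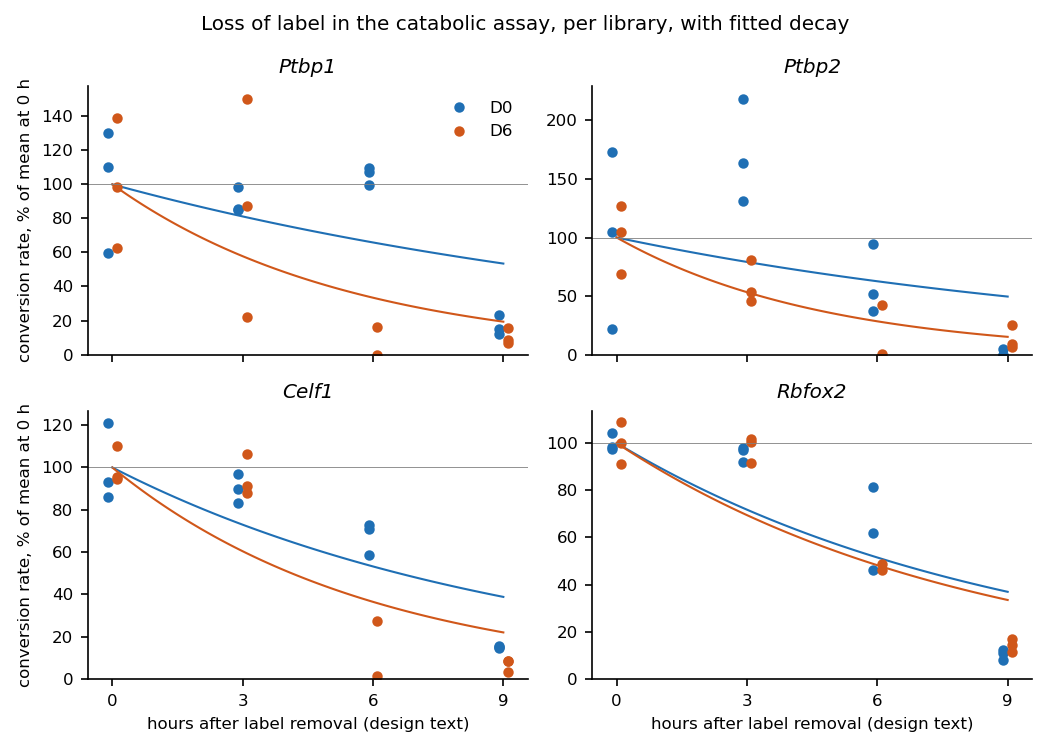
Conversion rate of Ptbp1, Ptbp2, Celf1 and Rbfox2 in the catabolic assay, as percent of the mean at 0 h, per library, against hours after label removal in the series description, for D0 (blue) and D6 (orange) with the fitted exponential curves. The points at 3 h lie near those at 0 h for Celf1 and Rbfox2, and the points of these genes at 9 h lie below their curves. At 6 h, D6 has 2 points, the lower of which is library 14 in the panels of Ptbp1, Ptbp2 and Celf1.

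For synthesis, 7 of 20 fits were kept, against 22.9% of 9205 3′ UTRs at D0 and 10.4% of 8886 at D6. They were Ptbp1 at D0 with 5.64 h (SE 1.41), Ptbp3 at D6 with 5.03 h (SE 1.08), Rbfox2 with 5.01 h (SE 1.24) at D0 and 5.68 h (SE 1.19) at D6, Celf1 with 6.02 h (SE 1.12) and 5.62 h (SE 1.1), and Celf2 at D6 with 6.45 h (SE 1.22). Ptbp1 at D6 had 7.95 h (SE 2.19, R squared 0.55), which was not kept, and 6.82 h (SE 1.70), which was, without library 45. Without library 45 or 53, the D6 values were 4.36 h and 5.61 h for Ptbp3, 5.30 h and 6.21 h for Rbfox2, 5.26 h and 6.23 h for Celf1, and 6.18 h and 6.53 h for Celf2. With 0 and 9 h only, Celf1 had 2.87 h at D0 and 2.49 h at D6.

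Other tissue-regulated splicing regulators were counted from a list of 28 genes, of which 20 could be tested without 4sU. Of these, 6 rose (7.08% of all 3′ UTRs did), 0 fell (5.19%) and 14 did not pass the test, with a median log2 change of 0.50 against -0.05 over all 3′ UTRs. Elavl4 and Elavl3, neuronal RNA-binding proteins of the Hu family, rose by 6.32 (SE 0.34, edgeR adjusted p = 1.58e-06) and 4.62 (SE 0.29, adjusted p = 3.86e-06). Elavl4 went from 22.2 ± 7.5 to 1753 ± 230 CPM and Elavl3 from 82.8 ± 18.7 to 2006 ± 359 CPM (SD, n = 3). Rbfox3, the neuronal paralog of Rbfox1 and Rbfox2 known as NeuN, had 3 reads at D0 and 761 at D6, a pooled ratio of 332 (exact 95% interval 113 to 1611, counting error only). Over all libraries its ratio was 67.9 (58.7 to 79.0). Like Srrm4, it passed the filter through D6 alone, as did Celf5 among the 6 that rose, and of the 16 genes that passed it in both states 4 rose, with a median of 0.14 over the 16. Elavl4, Elavl3 and Rbfox3 also stand on the list of neuron markers. In the 41 libraries with 4sU, 12 of the 25 listed regulators tested were higher at D6 (19.3% of all 3′ UTRs were) and 4 were lower (26.7%). Celf6, among those higher, had 0 D0 libraries past the minimum of the filter.

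Genes with exons that the regulators are known to control were counted in the same way, by their reads and not by their exons, which a 3′ end method does not see. Of 28 such genes 25 were tested without 4sU, of which 6 rose, 4 fell and 15 did not pass (7.08% and 5.19% of all 3′ UTRs rose and fell), with a median of 0.98. Of the 19 that passed the filter on low counts in both states, 5 rose and 3 fell. Gabbr1, a GABA-B receptor subunit, went from 3.73 ± 5.62 to 196 ± 75 CPM and passed the filter through D6 alone. Dlg4, which encodes the postsynaptic protein PSD-95 and whose exon PTBP1 and PTBP2 repress, rose by 3.30 (SE 0.41, edgeR adjusted p = 0.000543) from 22.3 ± 7.5 to 218 ± 60 CPM. Camta1, a transcription factor of brain, rose by 2.32 (SE 0.48, adjusted p = 0.0102, and 0.0607 without D6 library 37). Tpm1, a tropomyosin gene long used to study PTBP1, had 5524 reads at D0 and 11 at D6, a pooled ratio of 0.0026 (exact 95% interval 0.0013 to 0.00466, counting error only). Over all libraries its ratio was 0.0118 (0.0104 to 0.0134), and it passed the filter through D0 alone. Flna, which encodes the actin-binding filamin A, fell by 1.84 (SE 0.35, adjusted p = 0.00622), and Eif4g1, which encodes a translation initiation factor, fell by 1.76 (SE 0.30, adjusted p = 0.00349). In the 41 libraries with 4sU, 18 of the 27 genes tested from this list were higher at D6 (19.3% of all 3′ UTRs were) and 5 were lower (26.7%).

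The 3′ UTRs whose mean level over the 16 groups was most like that of Ptbp1, among 13208 compared by Pearson's r of log2 levels, were those of Itga6 (0.985), Myh9 (0.979) and Tcf7l1 (0.978). Among those most like Ptbp2 were Kmt2c (0.945) and Zkscan1 (0.944). The 16 groups share 2 states, whose part in these correlations was not tested, so that these values describe a rank order only.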

How the data were processed

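SLAM-seq libraries prepared with a 3′ end kit were available for D0 and D6 P19 cells. The authors aligned the reads to mm10 with SLAMdunk (version 0.3.3, per the file headers), masked polymorphisms and counted conversions over 39419 3′ UTR intervals with RefSeq names. The deposited counts, which are not normalized, give the reads of an interval, its T>C conversions and its covered T positions. The deposited conversion rate, a fraction, was recomputed from these counts, and the deposited CPM was used only to find the mapped reads of a library. No molecular identifiers were used. Intervals of a transcript were added up, and transcripts that shared all intervals were counted once.

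Reads and conversions were tested in R 4.3.3 with edgeR 4.0.16 (quasi-likelihood test, TMM and its filter on low counts for reads, and for conversions an offset of the log-transformed covered T positions, with a mean of at least 1000 per library and state). Values relative to the library also hold its rate over all 3′ UTRs in the offset. P-values were adjusted by Benjamini-Hochberg over all 3′ UTRs tested, with a threshold of 0.05. Exponential curves were fitted with scipy 1.17.1 in Python 3.11.15 to rates divided by the mean at 0 h of the catabolic assay, and half-lives up to 5000 min were kept. As alternatives, DESeq2 1.42.0 was run, as was limma 3.58.1 after subtraction of the rate without 4sU, with other minimums of coverage, no filter, no TMM, 1 3′ UTR per gene, label hours, 0 and 9 h only, all 47 libraries with assay and time point as a block, and each library left out. The fits to 44, 41 and 38 libraries were chosen after seeing the data. They and the fit to all 47 count libraries of different time points as separate samples. Scripts were tested on simulated data.

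The 10 genes and the lists were chosen with earlier results of these data known. From the other lists, up to 3 higher and 3 lower genes with the largest change among those past the threshold were named, and for the likeness the 3 highest correlations with Ptbp1 and Ptbp2, of which 1 is not reported here. Numbers of libraries are those of the labels.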

Additional observations from a re-analysis of the deposited data

How the results depend on the processing

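No paired analysis was possible because the labels number every library of the series differently, so that no number is shared between groups. For the 10 genes, the direction of the read changes without 4sU held under all alternatives but 1, Ptbp3 without D6 library 37 (from -0.0052 to 0.56 when each library was left out). The number of 3′ UTRs called for these reads was 2119 by DESeq2, 6486 with all 47 libraries, 7124 with 44, 6079 with 41 and 6774 with 38, and 793 to 1456 when each library was left out. For 15 h of 4sU it was 2 at D0 by DESeq2 (0 to 0 with each library left out), and 177 by DESeq2, 40 without a filter and 0 to 3 at D6. For label after 15 h it was 126 by DESeq2, 0 and 8 with minimums of 100 and 10000 covered T positions, 0 by limma and 0 to 2. For label left after 9 h between the states it was 211 by DESeq2, 5 with a minimum of 100, 4 by limma, 0 and 56 for slopes over the hours of the description and of the labels, and 2 to 91, the last without D6 library 16. Relative to the library at D0 it was 1054 by DESeq2, 208 with a minimum of 100, 311 by limma, 754 and 1699 for the slopes, and 297 to 642. At D6 it was 868 by DESeq2, 185 with a minimum of 10000, 638 by limma, and 57 to 131. For uptake it was 61 by DESeq2 and 0 to 63, the last without D6 library 52. Kept decay fits numbered 18 with no minimum of R squared and 8 to 11 with each library left out. Kept synthesis fits numbered 15 with label hours, 16 with 0 and 9 h and 6 to 10. Between the states, label left reversed for Ptbp1 (0.16) and Nova1 (0.48) by limma, for Celf2 over the slopes (-0.51 and -0.086), and for Nova2 with the hours of the description (-2.29, and 0.34 relative to the library at D0). With each library left out, label left between the states ran from -1.15 to -0.41 for Ptbp1, -0.97 to -0.02 for Nova1 and 1.07 to 3.21 for Nova2. It ran from -2.02 to 0.45 for Rbfox1, -0.19 to 0.76 for Celf2 and -1.24 to 0.20 for Ptbp3. Relative to the library at D6 it ran from -0.38 to 0.43 for Nova2. Relative to the library at D0, Ptbp2 (adjusted p = 0.0194) and Ptbp3 (0.0474) were called by edgeR only for the slope over the label hours, for which Celf1 (0.00158) and Rbfox2 (0.00142) were called too. The cause of these differences was not tested. Half-lives moved by more than their error in 79 alternatives and stayed within it in 523. Depth limits the D0 values of Srrm4 (38 reads in 24 libraries), Rbfox1 (1497), Nova2 (4510) and Ptbp2 (5236), which had the fewest reads of the 10 genes there.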
